A study of Mus musculus with 6 samples.

Results

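The SP1 binding sites in and around 10 mouse genes for sequence-specific transcription factors were compared for accessibility between neural progenitor cells (NPC) and embryonic stem cells (ESC). The genes were Klf7 and Klf16 of the KLF family, Nfyb, Nfic, Usf1, Creb1, Pou2f1, the ETS-domain genes Elk3 and Elk4, and Tcf3. A site belonged to a gene when its midpoint lay inside the gene or within 50000 bp of either end, with gene positions from RefSeq. This gave 107 sites of the 9001 listed, all 10 genes had at least 4, and no site fell to more than 1 gene. Of these, 17 sites lay within 1000 bp of an end of their gene and 90 lay farther off. The last site within the 50 kb limit, 49.986 kb from Usf1, had a log2 fold change of 0.24, and the first beyond it, 50.354 kb from Creb1, had 1.37, neither called per the authors' deposited table.

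Accessibility was measured by ATAC-seq, in which the Tn5 transposase cuts open chromatin, in 3 libraries of the mouse ESC line R1 and 3 libraries of NPC that also carry the name R1. No other treatment or genotype stands in the labels, and how the NPC were made is not given in the sources used here. The values came from 1 comparison, NPC over ESC, at high-confidence sites of SP1 that are each 500 bp wide. They cover chromosome 1, chromosome 10 and chromosome 11 up to position 20195189. Each site has a mean signal (the normalized count averaged over all libraries), a log2 fold change with its standard error (SE) and an adjusted p-value, all as per the authors' deposited table. A site was called when that adjusted p was below 0.05, and it rose or fell by the sign of its fold change. No SD stands beside a site, since values per library were not analysed here, and a site open in fewer cells cannot be told apart from one less open in each cell. By the same rule for sites, 5 of 13 listed ESC marker genes, 5 of 11 NPC marker genes and 6 of 8 genes of other cell types had a site. At the ESC genes 25 of 50 sites fell and 8 rose, and at the NPC genes 20 of 30 rose and 4 fell. At the genes of other cell types 15 of 49 rose and 22 fell. The ESC gene Nodal went the other way, with 4 rises and 3 falls, and Map2 gave 10 of the 15 rises at other cell types.

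SP1 is a zinc-finger factor that binds GC boxes in many promoters, and the KLF proteins share its type of DNA-binding domain and bind GC-rich or CACCC elements. The other proteins encoded by these genes bind different elements that often lie beside GC boxes. NFYB is a subunit of the trimeric CCAAT-binding factor NF-Y, NFIC is a nuclear factor I protein, USF1 binds E-boxes, CREB1 binds the cAMP response element and POU2F1 binds the octamer. ELK3 and ELK4 are ternary complex factors that act with SRF downstream of MAP kinase signalling, and TCF3 is the E protein that pairs with tissue-specific bHLH factors, among them the proneural ones. Their genes are expressed in many cell types.

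Promoter windows from RefSeq (GRCm38.p6, 250 bases before to 50 after an annotated start) were found for 9 of the 10 genes, 14 windows in all, with none for Klf16. Of these, 9 windows of 6 genes were overlapped by a listed site. Windows are shown for the 4 genes whose start-end site rose (Klf7, Nfyb, Usf1 and Tcf3). They are also shown for 2 whose start-end sites were not called (Pou2f1 and Elk4), and for Creb1, whose window no listed site overlaps. Usf1, Pou2f1 and Elk4 have further windows that are not shown. Capitals mark the GC box, GGGCGG on either strand, including overlapping matches.

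Klf7, chr1:64121340-64121639, minus strand: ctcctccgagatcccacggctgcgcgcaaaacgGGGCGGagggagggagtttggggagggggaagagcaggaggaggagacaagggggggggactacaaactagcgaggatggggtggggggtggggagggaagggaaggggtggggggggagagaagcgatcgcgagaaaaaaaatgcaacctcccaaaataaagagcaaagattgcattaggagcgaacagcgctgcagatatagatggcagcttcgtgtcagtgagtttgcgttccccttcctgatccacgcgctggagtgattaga
Nfyb, chr10:82764092-82764391, minus strand: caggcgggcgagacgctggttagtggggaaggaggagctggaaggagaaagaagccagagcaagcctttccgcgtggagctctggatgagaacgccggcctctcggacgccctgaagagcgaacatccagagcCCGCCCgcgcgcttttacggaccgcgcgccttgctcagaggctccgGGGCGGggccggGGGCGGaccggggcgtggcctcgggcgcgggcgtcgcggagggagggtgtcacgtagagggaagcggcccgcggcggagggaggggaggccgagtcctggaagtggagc
Usf1, chr1:171411063-171411362, plus strand: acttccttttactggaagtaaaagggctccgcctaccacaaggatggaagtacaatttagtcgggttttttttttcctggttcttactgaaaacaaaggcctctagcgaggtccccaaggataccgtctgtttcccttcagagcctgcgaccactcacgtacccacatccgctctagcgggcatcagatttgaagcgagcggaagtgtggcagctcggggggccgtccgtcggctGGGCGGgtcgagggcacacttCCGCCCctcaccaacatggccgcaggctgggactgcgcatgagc
Tcf3, chr10:80433586-80433885, minus strand: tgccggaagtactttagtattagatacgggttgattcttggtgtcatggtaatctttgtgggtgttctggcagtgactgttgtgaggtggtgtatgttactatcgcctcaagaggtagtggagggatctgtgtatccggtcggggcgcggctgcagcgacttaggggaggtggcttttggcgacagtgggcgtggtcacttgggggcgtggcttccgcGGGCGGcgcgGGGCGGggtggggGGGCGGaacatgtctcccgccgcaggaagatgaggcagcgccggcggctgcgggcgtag
Pou2f1, chr1:166002585-166002884, minus strand: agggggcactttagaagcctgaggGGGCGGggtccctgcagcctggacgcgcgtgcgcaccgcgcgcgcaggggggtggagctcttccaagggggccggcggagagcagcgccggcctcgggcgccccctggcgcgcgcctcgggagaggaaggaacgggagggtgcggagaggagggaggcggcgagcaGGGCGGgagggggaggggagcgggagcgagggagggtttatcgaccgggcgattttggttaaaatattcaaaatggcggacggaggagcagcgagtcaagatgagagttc
Elk4, chr1:132007852-132008151, plus strand: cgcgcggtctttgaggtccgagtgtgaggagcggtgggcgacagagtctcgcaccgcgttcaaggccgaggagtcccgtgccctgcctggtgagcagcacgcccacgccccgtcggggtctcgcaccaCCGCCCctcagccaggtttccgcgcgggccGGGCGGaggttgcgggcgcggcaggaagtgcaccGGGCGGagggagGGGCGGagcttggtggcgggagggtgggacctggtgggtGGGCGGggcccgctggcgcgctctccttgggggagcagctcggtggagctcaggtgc
Creb1, chr1:64532554-64532853, plus strand: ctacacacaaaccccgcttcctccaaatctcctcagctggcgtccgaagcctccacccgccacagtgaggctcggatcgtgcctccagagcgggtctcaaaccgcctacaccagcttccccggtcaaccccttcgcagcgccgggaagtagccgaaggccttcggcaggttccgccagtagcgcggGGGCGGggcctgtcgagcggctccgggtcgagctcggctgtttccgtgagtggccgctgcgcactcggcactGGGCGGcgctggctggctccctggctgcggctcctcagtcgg

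The GC box occurred in 11 of the 14 windows, against 35.7% of all 32851 promoter windows in the RefSeq table, and in 8 of the 9 windows overlapped by a site. The listed sites are those of SP1, which binds the GC box, so these shares cannot be read as a trait of these genes. Other promoter windows overlapped by a listed site were not counted. In the windows shown, Nfyb and Tcf3 had 3 matches each, Usf1, Pou2f1 and Creb1 had 2 each, Klf7 had 1 and Elk4 had 5. Among windows not shown, Nfic had 4, Elk3 had 2, Usf1 had 1, Elk4 had 0 and 2, and those of Pou2f1 had 0. The Elk4 window with 0 was the overlapped window without a GC box. The site 12 bp from the Elk4 start covered it in full. The windows of 1 gene can overlap, as those of Elk4 do, so they are not independent. G and C made up 71.3% of the Nfyb window, 58.3% of that of Klf7 and 57.0% of the first of Usf1, where the median of all windows was 52.7%. The first and second windows of Pou2f1 lay below that median, at 38.0% and 28.7%, and all other windows of the members lay above it. CACCC on either strand, an element of the KLF proteins, was in 9 of the 14 windows and in 57.5% of all. The NF-Y element CCAAT was in 0 of the 14 windows and 37.4% of all. The E-box CACGTG, which USF1 binds, was in 0 of the 14 and 7.15% of all. The octamer ATGCAAAT, which POU2F1 binds, was in 0 of the 14 and 1.74% of all. TGACG, the CREB half-site, was in 1 window (the first of Elk4, 20.8% of all), CCGGAAG, an ETS core, in 2 (the first of Elk4 and that of Tcf3, 8.86% of all), and CAGGTG, an E-box that E proteins bind, in 2 overlapping windows of Elk4 (20.2% of all). No match says only that these letters are not in the window.

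At the starts of these genes, SP1 sites had a median signal of 34.9, beside 20.4 at all listed start-end sites, and the called changes were small rises in NPC. Of 11 sites within 1000 bp of the start end of a gene, 5 rose (45.5%) and 0 fell, against 24.3% and 13.1% of all 1114 start-end sites listed. At an unadjusted p below 0.05 per the authors' deposited table the counts were also 5 and 0. The 5 rises belonged to Klf7, Nfyb, Usf1 and Tcf3, and their log2 fold changes ran from 0.53 to 0.96. The 2 of Tcf3 overlap, and with 1 site per overlap group there were 4 gene-end rises. Usf1, Pou2f1, Elk4 and Tcf3 each gave more than 1 of the 11 sites, so the sites are not independent. At the far ends, 0 of 4 sites rose and 2 fell (Nfyb and Elk3), against 21.3% and 33.9% of the 127 listed sites that lay at far ends only. At an unadjusted p below 0.05 those counts were 0 and 3. The listed class left out sites that also lay at a start end or at an end of unknown strand. The 4 member sites were placed by their own gene alone. Those of Usf1 and Nfic also lay at ends of Tstd1 and Smim24, so the classes are not fully alike. Together with 2 uncalled sites at the ends of Klf16, whose strand was not known here, 5 of the 17 gene-end sites rose and 2 fell, beside 24.1% and 16.1% of all 1481 gene-end sites.

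How many of the 5 rises at gene starts were called depended on the p-values used and on the scale. When p was recomputed from each deposited fold change and its SE, which was added with the data already seen, those of Klf7 and Nfyb passed, and after centring on the median of all gene-end sites, 0.18, that of Nfyb alone. After centring on the median of all listed sites, -0.29, all 5 passed. Over all listed sites the recomputed p with no centring also called fewer, 1688 rises and 2382 falls against 2052 and 2934 deposited. Losing a call under the recomputed p therefore does not show that the deposited call is weak.

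**Figure D1:**
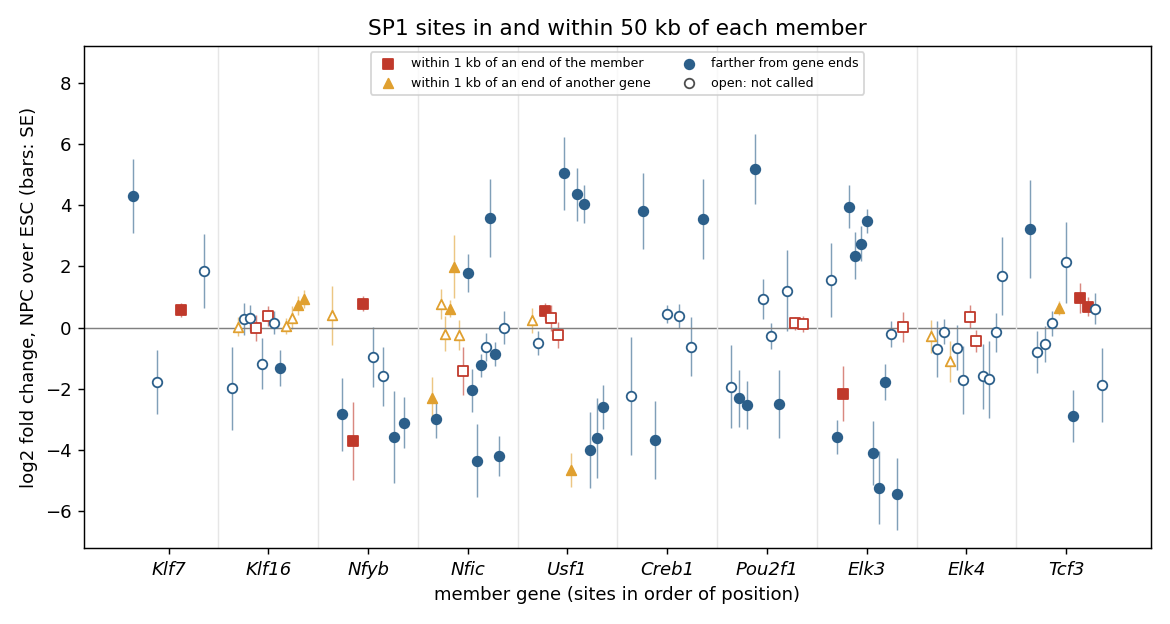
Log2 fold change, NPC over ESC, of every site of each gene, in order of position along the chromosome; bars are the deposited SE. Filled symbols are called and open ones not, squares lie within 1 kb of an end of the gene itself, triangles within 1 kb of an end of another gene and circles farther off. Squares run from -3.69, at the far end of Nfyb, to 0.96, and circles from -5.42 to 5.17.

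Across all 107 sites, 24 rose (22.4%), 27 fell (25.2%) and 56 were not called, where 22.8% of all listed sites rose and 32.6% fell. The median log2 fold change was -0.19, against -0.29 over all listed sites, and its sign depended on the setting, with 0.10 after centring on all sites and 0.09 among the 68 sites of at least median signal. The balance of rises and falls also turned with the scale. With p recomputed, 23 rose and 20 fell after centring on all listed sites, 18 rose and 24 fell with no centring, and 15 rose and 27 fell after centring on the gene-end median. Of the 73 sites away from every gene end, 14 rose (19.2%) and 23 fell (31.5%), against 22.5% and 35.9% of the 7520 listed sites of that class. Within this class, 7 of the 30 sites inside a member gene rose and 12 fell, and outside the genes 7 of 43 rose and 11 fell. The listed sites were not split in this way, so these counts have no share to stand beside. The other 17 distal sites lay within 1000 bp of an end of a different gene. There 5 rose (29.4%) and 2 fell (11.8%), beside 24.1% and 16.1% of all 1481 gene-end sites listed. For the members as a whole the share of rises was thus near that of the listed sites, and the share of falls was lower. Sites away from every gene end were 73 of the 107, against 7520 of the 9001 listed. Whether this mix of classes bears on the shares was not tested, and no test between the classes was run.

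**Figure D2:**
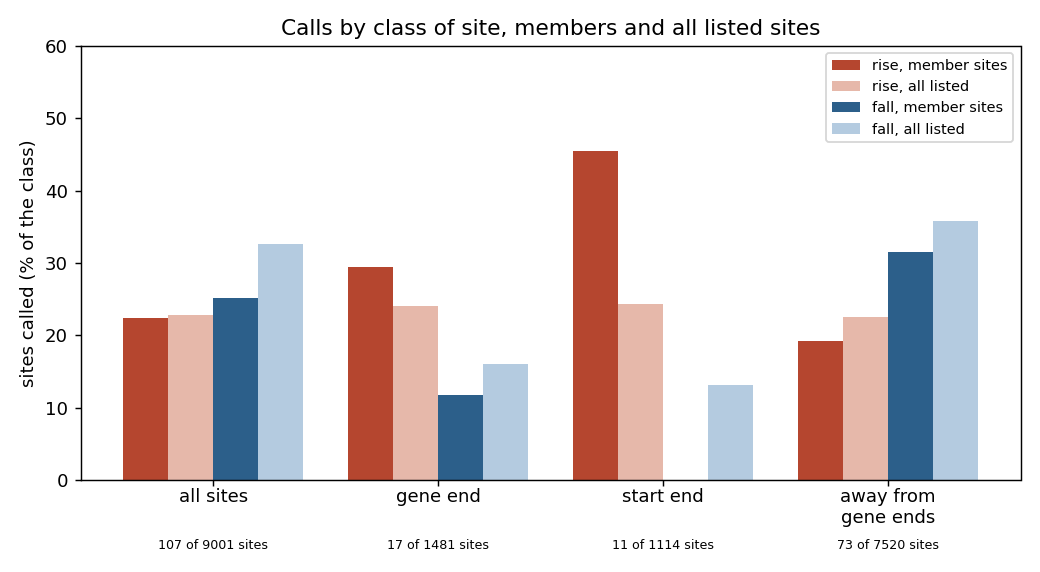
Share of sites called as a rise or a fall (percent of each class) for member sites, in dark bars, and for all listed sites of the same class, in pale bars; the numbers of sites stand under each class. The start-end class of the members has 45.5% rises and no bar for falls, and rests on 11 sites, with 2 overlapping ones at Tcf3.

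Klf7, a KLF gene with roles in neuronal development, had 4 sites, of which 2 rose. The start-end site, on chromosome 1 from 64121491 to 64121991, had a mean signal of 60.9 and rose by 0.58 ± 0.24 (SE, log2), which is 1.497-fold (adjusted p = 0.0165, the authors' deposited table). That site also holds the start of Gm35880, a lncRNA gene on the other strand, and the signal of the 2 starts cannot be told apart. A site deep inside the gene, 6.12 kb from its far end and with a mean signal of 5.81, rose by 4.30 ± 1.19 (adjusted p = 0.000468) per the authors' deposited table. The other 2 sites were weak, with mean signals of 3.24 and 2.62, and had -1.77 ± 1.06 and 1.85 ± 1.21 per the authors' deposited table, neither called.

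Klf16, a second KLF gene and one in a gene-dense stretch of chromosome 10, had 13 sites of which 10 were not called. Its end sites had 0.37 ± 0.33 (mean signal 23.5, 208 bp from one end) and -0.02 ± 0.42 (mean signal 10.8, 629 bp from the other) per the authors' deposited table. Between 1 and 2 kb from the gene, neighbouring sites that share a few bases differed in their calls. The nearer, 1335 bp away, had 0.17 ± 0.38, and the farther, 1830 bp away, fell by 1.31 ± 0.59 (adjusted p = 0.0198) per the authors' deposited table. The 2 rises near Klf16, 0.73 ± 0.31 and 0.94 ± 0.29 per the authors' deposited table, overlapped each other at the end of Csnk1g2, a casein kinase gene. Sites at the ends of Atp8b3, Abhd17a and the Adat3 and Scamp4 pair in the same window had 0.03 ± 0.31, 0.06 ± 0.25 and 0.33 ± 0.37 per the authors' deposited table, none called.

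Nfyb differed between its ends. The start-end site, on chromosome 10 from 82763780 to 82764280, had a mean signal of 53.8 and rose by 0.79 ± 0.25 on the log2 scale, or 1.73-fold (adjusted p = 0.00198, the authors' deposited table). The far-end site, 965 bp beyond the gene with a mean signal of 3.96, fell by 3.69 ± 1.27 (adjusted p = 0.00352) per the authors' deposited table. A neighbour 1497 bp from that end, just outside the gene-end limit, fell by 2.83 ± 1.19 per the authors' deposited table. Upstream of the start, a site 18.5 kb away fell by 3.56 ± 1.5 and another 47.9 kb away fell by 3.10 ± 0.83 (adjusted p = 0.000481), per the authors' deposited table. Of the 6 distal sites, 3 thus fell and 0 rose, with 4 falls and 0 rises at an unadjusted p below 0.05. All of the 8 sites but the one 47.9 kb away lie inside Hcfc2, a host cell factor gene whose RefSeq span contains Nfyb, so they cannot be given to Nfyb alone.

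Nfic had the most sites, 17, with 4 rises and 7 falls. Its only gene-end site, 852 bp beyond the far end and also at the end of Smim24, had -1.42 ± 0.79 (adjusted p = 0.0514) per the authors' deposited table. The site nearest the outermost start, 2.25 kb inside the gene, had -0.62 ± 0.45 per the authors' deposited table and was not called. Inside the gene, sites 1.23 kb apart moved in opposite directions. One rose by 1.78 ± 0.63 (adjusted p = 0.00530) and the next fell by 2.04 ± 0.70, and another site 0.517 kb on fell by 4.34 ± 1.20 (adjusted p = 0.000455), per the authors' deposited table. Upstream of the start, a weak site 3.72 kb away rose by 3.58 ± 1.28 (adjusted p = 0.00486) per the authors' deposited table. The strongest call of all near Nfic lay 33.6 kb upstream inside Celf5, a gene of an RNA-binding protein, and fell by 4.19 ± 0.64 (adjusted p = 2.76e-09) per the authors' deposited table. On the other side a site inside Hmg20b, the gene of an HMG-box protein, fell by 2.995 ± 0.61 (adjusted p = 8.80e-06), and the end of Fzr1, an activator of the anaphase-promoting complex, rose by 0.62 ± 0.29 (adjusted p = 0.0277), per the authors' deposited table. The 4 other called sites had log2 fold changes from -2.29 to 1.99 per the authors' deposited table.

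Usf1 had a small called rise at its start and a flank with large changes in both directions. The site 18 bp from its start, with a mean signal of 38.2, rose by 0.53 ± 0.27 (1.45-fold, adjusted p = 0.0465) per the authors' deposited table, just under the threshold. The next, 865 bp inside the gene, had 0.30 ± 0.42, and the site at the far end, which lies in Tstd1, had -0.24 ± 0.41, neither called per the authors' deposited table. From 16.6 to 46.9 kb beyond the far end lay 7 called sites, 3 rises and 4 falls, around F11r, which encodes the junctional adhesion molecule JAM-A of epithelial tight junctions. The site at the start of F11r, on chromosome 1 from 171437219 to 171437719, fell by 4.66 ± 0.56 at a mean signal of 35.9 (adjusted p = 1.33e-14) per the authors' deposited table. A site 1.92 kb before it rose by 5.04 ± 1.20 (adjusted p = 4.75e-05) per the authors' deposited table. Inside F11r, overlapping sites rose by 4.35 ± 0.88 and 4.04 ± 0.61 (adjusted p = 4.04e-06 and 1.43e-09) per the authors' deposited table. Farther along, a site inside F11r fell by 3.99 ± 1.23 and one beyond it fell by 2.59 ± 0.71 (adjusted p = 0.00146 and 0.000693), per the authors' deposited table.

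Creb1 had no listed site within 1000 bp of an end, although its promoter window holds 2 GC boxes. Its 7 sites were all distal, and the called ones were weak, with mean signals of 3.47 to 4.08. A site 10.6 kb before the start rose by 3.81 ± 1.24 (adjusted p = 0.00234) per the authors' deposited table. Inside the gene, 25.9 kb from its far end, a site fell by 3.66 ± 1.29 (adjusted p = 0.00414), and 27.2 kb beyond the far end a site rose by 3.55 ± 1.30 (adjusted p = 0.00550), per the authors' deposited table. The strongest sites in the window lay inside Mettl21a, a methyltransferase gene, with mean signals of 27.7 and 14.7, and had 0.44 ± 0.30 and 0.38 ± 0.39, neither called per the authors' deposited table.

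Pou2f1 kept 2 strong uncalled sites at its start and had its changes elsewhere in the gene, which has 3 annotated starts. Distances are given from the outermost start. The start-end sites, with mean signals of 58.9 and 34.9, had 0.15 ± 0.21 and 0.12 ± 0.25 (adjusted p = 0.524 and 0.669) per the authors' deposited table. An uncalled value does not show that a start is equally open in both cell types. Within the gene, a site 88.4 kb from the start, on chromosome 1 from 165914058 to 165914558, rose by 5.17 ± 1.14 (adjusted p = 1.52e-05) per the authors' deposited table. Its neighbour 2.82 kb away fell by 2.53 ± 0.77 (adjusted p = 0.00197), and sites 30.4 and 122 kb from the start fell by 2.50 ± 1.12 and 2.31 ± 0.94, per the authors' deposited table. From the nearest annotated start, internal ones included, the rise lay 20640 bp away, its neighbour 23457 bp, and the other falls 19278 and 54646 bp. The other 4 sites inside the gene were uncalled, from -1.93 to 1.21.

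Elk3 had the most called sites inside a gene, 9 of 11 within its bounds, and away from its ends the rises and falls lay in separate stretches. The 4 rises lay from 35.6 to 55.7 kb from the start and the 4 falls from 13.1 to 32.6 kb, an order noticed after the values were seen and not tested. The strongest, on chromosome 10 from 93275298 to 93275798 at a mean signal of 38.7, rose by 3.49 ± 0.39 (adjusted p = 2.70e-16) per the authors' deposited table. Those 55.7 and 47.6 kb from the start rose by 3.96 ± 0.71 and 2.74 ± 0.57 (adjusted p = 2.98e-07 and 1.36e-05) per the authors' deposited table. Only 3.02 kb from the strongest rise a site fell by 4.09 ± 1.05, and the next fell by 5.22 ± 1.20 (adjusted p = 2.55e-05), per the authors' deposited table. The fall nearest the start, at 13.1 kb, had -5.42 ± 1.18 (adjusted p = 9.57e-06) per the authors' deposited table. Beyond the far end, inside Cdk17, a cyclin-dependent kinase gene, a site fell by 3.56 ± 0.55 (adjusted p = 4.03e-09), and the far-end site itself, also in the span of Cdk17, fell by 2.15 ± 0.89 (adjusted p = 0.0148), per the authors' deposited table. At the start end, a weak site 853 bp inside had 0.04 ± 0.49 per the authors' deposited table, and no listed site overlapped the promoter window.

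**Figure D3:**
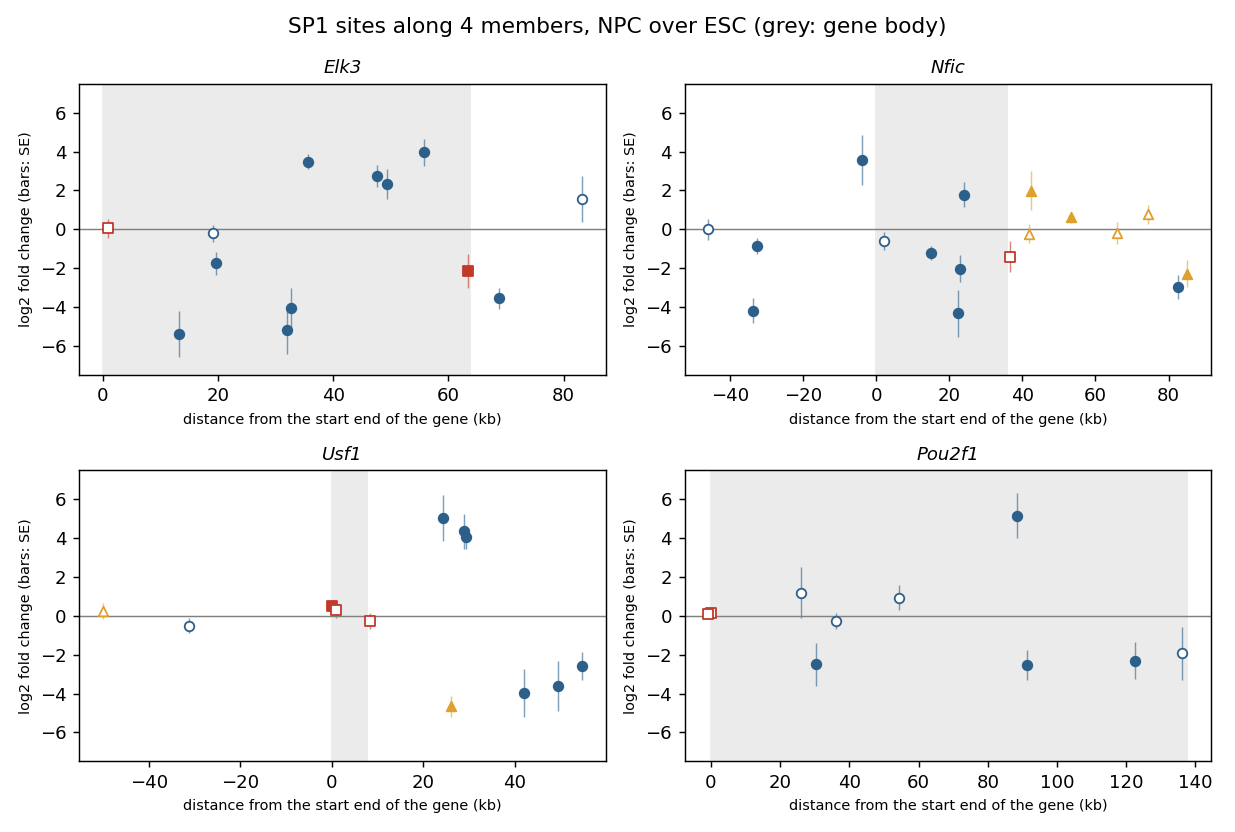
Log2 fold change of sites, NPC over ESC with the deposited SE, against distance from the start end of Elk3, Nfic, Usf1 and Pou2f1 in kb, with the gene body in grey; filled symbols are called, squares are ends of the gene itself, triangles ends of other genes and circles sites farther off. In Elk3, its end sites aside, the falls inside the gene from 13.1 to 32.6 kb precede the rises from 35.6 to 55.7 kb, and at Usf1 the large changes lie beyond the far end.

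Elk4, the other ternary complex factor gene, had no called site among 12, where 22.8% of all listed sites rose and 32.6% fell. At an unadjusted p below 0.05 per the authors' deposited table, 1 site fell and 0 rose. The start-end sites, 12 bp and 532 bp from the start with mean signals of 15.5 and 17.7, had 0.36 ± 0.38 and -0.42 ± 0.36 (adjusted p = 0.329 and 0.223) per the authors' deposited table. The distal sites had log2 fold changes from -1.72 to 1.69 at mean signals of 2.37 to 11.4, and 9 of the 10 were negative. Their median SE was 0.82, beside 0.71 over the 90 distal sites of all 10 genes, of which 48.9% were called. Of those 90 sites, 52 were negative. Some distal sites of Elk4 lie in or at Slc45a3 or inside Mfsd4a, so they cannot be given to Elk4 alone.

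Tcf3 had 4 rises and 1 fall among 11 sites. Both start-end sites rose, by 0.96 ± 0.48 at a mean signal of 14.0 and by 0.68 ± 0.31 at 35.7 (1.95-fold and 1.60-fold, adjusted p = 0.0335 and 0.0249), per the authors' deposited table. They overlap, on chromosome 10 from 80433435 to 80434346, and so share reads. Inside the gene, 10.2 kb from its start, a site fell by 2.88 ± 0.85 (adjusted p = 0.00139), and a site 8.99 kb from the far end had 2.14 ± 1.33, not called, per the authors' deposited table. The strongest site of all 107, at the start of Mbd3, the gene of a NuRD complex subunit 9.84 kb from Tcf3, had a mean signal of 71.6 and rose by 0.65 ± 0.24 (adjusted p = 0.00672) per the authors' deposited table. The weakest called site, at a mean signal of 1.81 inside Plk5 and 45.6 kb from Tcf3, rose by 3.23 ± 1.59 (adjusted p = 0.0246) per the authors' deposited table.

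Gene-end sites carried more signal and smaller errors than the rest. The 17 gene-end sites had a median signal of 15.5 and a median SE of 0.38, and the 73 sites away from gene ends had 6.04 and 0.85. Among all listed sites the median signals of these classes were 18.1 and 4.99. The median absolute log2 fold change was 1.31 over the 107 sites, lower than the 1.93 over all listed sites. How many of all listed sites passed a log2 fold change of 2 was not counted here. A log2 fold change above 2 in either direction was found at 38 of the 107 sites, and 4 of these had a mean signal above 20. They were the rise of 3.49 inside Elk3, the fall at the start of F11r, the rise of 4.04 inside it and the fall inside Celf5, from the authors' deposited table.

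**Figure D4:**
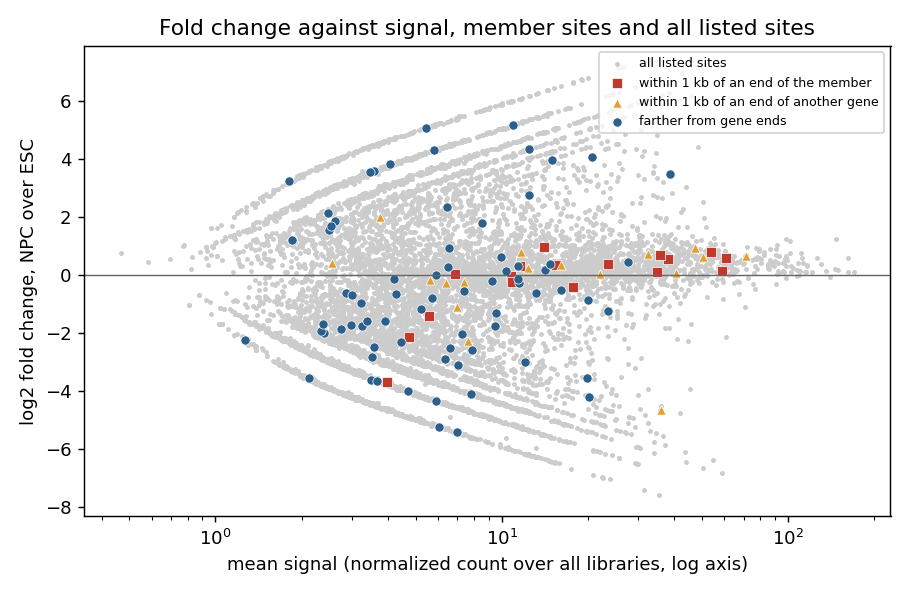
Log2 fold change, NPC over ESC, against mean signal on a log axis for all 9001 listed sites in grey and for the member sites in colour (squares, ends of the member; triangles, ends of other genes; circles, farther off). Squares of gene starts mostly lie at higher signal near 0, and many listed sites of low signal lie on curved bands. The far-end falls of Nfyb and Elk3 are at mean signals of 3.96 and 4.74.

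The listed regions held few other genes of these families. Members aside, sites were found for 0 other SP or KLF genes, and likewise for 0 other genes of the NF-Y, NFI, E-box bHLH-ZIP and E protein lists. Of the CREB and ATF list, 3 further genes had 21 sites with 6 rises and 4 falls (median log2 fold change 0.48). Creb3l3 had 3 rises and 1 fall among 6 sites, led by 0.98 ± 0.38 per the authors' deposited table. Atf3, a stress-induced factor, had 1 rise and 1 fall among 7, led by -3.36 ± 0.77, and Atf6, a sensor of unfolded proteins, had 2 of each among 8, led by -3.96 ± 1.23, per the authors' deposited table. Of the POU list, Pou3f3, a neural POU gene that also stands on the NPC marker list, had 3 rises and 0 falls among 5 sites, led by 3.01 ± 0.78 per the authors' deposited table.

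Of the ETS list, 3 further genes had 16 sites with 2 rises and 6 falls (median -0.80), beside 6 rises and 12 falls among 41 sites when Elk3 and Elk4 are counted. Spic, a macrophage factor gene, had 3 falls and 1 rise among 5 sites, led by -5.06 ± 1.00 per the authors' deposited table. Fev, a factor of serotonergic neurons, had 2 falls among 7, led by -3.86 ± 0.91, and Elf3, an epithelial factor, had 1 rise and 1 fall among 4, led by 2.89 ± 0.66, per the authors' deposited table. Among other promoter-binding factors, 3 genes had 26 sites with 5 rises and 11 falls (median -1.27). E2f7, a repressor of the E2F family, had 6 falls and 0 rises among 10 sites, led by -3.14 ± 0.70 per the authors' deposited table. Rfx4, a ciliary and neural regulator, had 5 rises and 4 falls among 14, led by 5.98 ± 1.15, and Rfx6 had 1 fall of 2, -1.96 ± 0.59, per the authors' deposited table. These sites can also lie in or at neighbouring genes, and leading sites were picked by their adjusted p.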

How the data were processed

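ATAC-seq libraries of ESC (3) and NPC (3) entered 1 comparison made by the authors. The submitters' processing notes name build mm10, BWA 2.1, Picard 2.23.8, MACS2 2.2.7, SAMtools 1.9 and DESeq2, without roles or settings; how sites were selected, whether reads were shifted for Tn5 and which model was fitted were not stated there. Mean signal is the deposited normalized count averaged over libraries, per the file headers. All log2 fold changes with SE, and the p-values and adjusted p-values, are values deposited by the authors; that they run NPC over ESC is read from the table's name. The deposited p-values differ from those of deposited fold change over SE. With p recomputed and no centring, 1688 of all listed sites rose and 2382 fell, against 2052 and 2934 by the deposited values. Fold changes may have been shrunk, which would understate sites with few reads, and this was not tested. Depth per library is unknown. Separate cultures are not stated, and the p-values may reflect technical spread alone.

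Sites were assigned by midpoint to members (within 50000 bp), and gene ends (within 1000 bp) used protein-coding RefSeq genes of GRCm38.p6; start and far ends used the strand of the RefSeq promoter table. Site coordinates are printed as in the table; whether counting starts at 0 or 1 is not stated there. Exons and introns were not analysed here. Where p was recomputed, it came from fold change over SE with Benjamini-Hochberg adjustment over the 9001 listed sites. It was run on simulated data whose errors were drawn from the deposited SE. Such data cannot show whether the recomputed p holds for the real sites. Python 3.11.15, pandas 2.3.3 and scipy 1.17.1 were used. No test was made over lists or classes, and overlapping sites share reads. Members, lists and tests were chosen with earlier results of these data known. Every gene-end site is named, and so are all called distal sites of a member with at most 5, otherwise the 3 of smallest adjusted p in each direction. Family genes with called sites are named by counts and leading site. Alternatives were other thresholds, fold and signal minimums, centrings, distances, assignment rules and leaving out each member; recomputed p, gene-end centring, sites inside genes, 1 site per overlap group and the start-end split were added after the data were seen.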

Additional observations from a re-analysis of the deposited data

How the results depend on the processing

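Of the counts of 24 rises and 27 falls, rises came to 15 when a log2 change above 1 was required and to 15 with gene-end centring. At an adjusted p below 0.01 per the authors' deposited table, 16 sites rose and 20 fell. Gene-end rises, 5, came to 1 at an adjusted p below 0.01 and with gene-end centring, 0 with a log2 change above 1, 2 with recomputed p and 3 without Tcf3. Gene-end falls, 2, came to 1 at an adjusted p below 0.01, with centring on all sites, with ends within 500 bp, with nearest-gene assignment, and without Nfyb or Elk3. They came to 0 at or above median signal or at start ends alone, and to 4 with ends within 2000 bp. Distances and assignment change how many sites are counted. Within 100 kb, 38 of 161 sites rose and 43 fell (33 and 41 distal). With nearest-gene assignment 14 of 51 rose and 14 fell (9 and 13 distal). Inside members 10 of 37 rose and 13 fell (7 and 12 distal, 3 and 1 at gene ends). The causes of the other shifts were not tested.

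Without any 1 member, the 24 rises ranged from 20 to 24, the 27 falls from 20 to 27. The median log2 fold change, -0.19, changed sign to 0.10 with centring on all sites and to 0.09 at or above median signal, and was -0.62 inside members. No paired analysis was possible because the table holds 1 comparison with no values per library, and leaving out each replicate was not run for the same reason. Depth per library is unknown, so what it limits was not analysed here.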

Other observations

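Neighbouring sites with opposite calls were counted after several were seen around these genes. Among consecutive member sites with midpoints at most 5 kb apart, 31 pairs were found, both sites were called in 14, and the calls were opposite in 5 (35.7%). Over all listed sites there were 1715 such pairs, 659 with both called and 151 opposite (22.9%). The 5 pairs were 2 at F11r beside Usf1, which share the fall at the start of F11r, and 1 each inside Pou2f1, Nfic and Elk3. Log2 fold changes across them were 5.04 and -4.66, -4.66 and 4.35, -2.53 and 5.17, 1.78 and -2.04, and 3.49 and -4.09 in the authors' deposited table. With 14 pairs the difference in shares rests on few sites and was not tested.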
